A study of Mus musculus with 4 samples.

Results

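The 8 mature miRNAs described here are both arms of miR-33 (mmu-miR-33-5p and mmu-miR-33-3p), of miR-378a (mmu-miR-378a-5p and mmu-miR-378a-3p) and of miR-802 (mmu-miR-802-5p and mmu-miR-802-3p), together with mmu-miR-103-3p and mmu-miR-107-3p, a set linked to lipid and glucose control in the liver. They were taken by name from the 1907 mature miRNAs counted in each library, and all 8 passed the filter on low counts. Small RNA was sequenced from the livers of C57BL/6 mice aged 15 weeks. The control group held 2 libraries, and the thioacetamide (TAA) group held 2 libraries from mice injected intraperitoneally with 200 mg/kg TAA 3 times a week for 10 weeks. TAA is a hepatotoxin used to produce liver fibrosis in rodents. The labels name no vehicle for the controls and no sex, and they do not say whether each library came from its own animal. The series design text speaks of biological replicates, so the p-values below set group differences against the spread between these libraries. In the edgeR and limma tests that spread is estimated partly from the other miRNAs or hairpins tested.

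A miRNA hairpin is cut into a 5p and a 3p arm, and the arm that enters the silencing complex finds its target mRNAs mainly through its seed, bases 2 to 8. miR-33 is processed from an intron of Srebf2, which encodes a transcription factor of cholesterol synthesis, and it represses the cholesterol exporter Abca1. miR-378a is processed from Ppargc1b, a coactivator gene of mitochondrial metabolism. miR-802 is known for its rise in the liver of obese mice, where it impairs glucose handling. miR-103 and miR-107 lie in introns of the pantothenate kinase (Pank) genes, whose enzymes start coenzyme A synthesis, and they are known as negative regulators of insulin sensitivity.

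In GRCm38 coordinates (GENCODE M21 for the host genes), the miR-33 hairpin lies at chr15:82198122-82198190 on the plus strand, in an intron of Srebf2. Mature miR-103-3p is made from a pair of hairpins, Mir103-1 at chr11:35782396-35782481 in an intron of Pank3 and Mir103-2 at chr2:131288052-131288137 in an intron of Pank2, both on the plus strand. The miR-107 hairpin lies at chr19:34820687-34820773 on the minus strand, in an intron of Pank1. The miR-802 hairpin, at chr16:93369720-93369816 on the plus strand, lies in no annotated gene other than its own. Mature sequences of 6 of the 8 members were matched in RefSeq (GRCm38.p6), and the other members are miR-378a-3p and miR-378a-5p. The 6 sequences are shown 5′ to 3′ with the seed in capitals, since the seed decides which members can share targets.
miR-33-5p: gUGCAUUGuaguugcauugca
miR-33-3p: cAAUGUUUccacagugcaucac
miR-802-5p: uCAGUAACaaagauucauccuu
miR-802-3p: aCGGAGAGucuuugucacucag
miR-103-3p: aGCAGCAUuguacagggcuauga
miR-107-3p: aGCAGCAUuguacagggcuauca

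miR-103-3p and miR-107-3p share their seed and 22 of 23 bases. They differ by G22C, counted from the 5′ end with the miR-103-3p base first, so the files tell them apart by 1 base near the 3′ end. Of the names in the count files that have a RefSeq sequence (1623 of 1907), none beyond this pair had the seed of any of the 6 members. The first 7 bases of miR-103-3p, AGCAGCA, are the seed of 10 other names, among them miR-15a-5p and miR-16-5p. The opposite arms of the miR-103 and miR-107 hairpins are not members, but they are the only arms that can separate the Pank3 locus from the Pank2 locus, and they are shown for that reason.
miR-103-1-5p: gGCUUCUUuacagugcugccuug
miR-103-2-5p: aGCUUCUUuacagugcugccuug
miR-107-5p: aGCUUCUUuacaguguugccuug

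The arms of Mir103-1 and Mir103-2 differ by G1A, and those of Mir103-2 and miR-107 by C16U. The treatment of reads that fit both miR-103 loci is unknown from the labels, and the files list 0 multiply aligned reads for each library, so the division of reads among such near copies is uncertain.

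The libraries held 42609845 to 48878003 miRNA counts. Values below are CPM, read counts relative to library size, scaled with TMM factors, which correct for the make-up of a library, with n = 2 libraries per group. The 95% Wilson interval, which covers counting error only, reached at most 11.8% of a member's value to either side (miR-33-3p) and at most 0.302% for miR-378a-3p. The liver label was checked with hepatocyte miRNAs: miR-122-5p ranked 12 of all 1907 rows by mean CPM, and the 6 hepatocyte markers summed to 358928 and 391595 CPM in the controls and to 325935 and 336514 CPM after TAA. The 7 leukocyte markers summed to 1216 and 1808 CPM in the controls and to 2501 and 2069.9 CPM after TAA. The 4 pancreas markers summed to 110.6 CPM in control 1 and to between 8.51 and 10.6 CPM in the other libraries. In bulk liver, fewer cells of a type and less RNA per cell cannot be told apart.

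In both groups miR-378a-3p was the most abundant member, about 1% of all miRNA counts, and both arms of miR-33 were the rarest. The order by mean CPM was miR-378a-3p, miR-103-3p, miR-107-3p, miR-802-5p, miR-802-3p, miR-378a-5p, miR-33-5p and miR-33-3p, and their ranks among all rows ran from 17 to 298. CPM counts reads without regard to length, and the 6 sequenced members are 21 to 23 bases long. No library broke this order. Within a library the narrowest step was from miR-33-5p to miR-33-3p, at least 1.30 times, and miR-103-3p exceeded miR-107-3p by at least 1.34 times. Across libraries, the lowest miR-103-3p value (1444 CPM, TAA 1) lay just above the highest miR-107-3p value (1426 CPM, control 1). miR-378a-3p exceeded miR-103-3p by 5.95 to 6.52 times within a library, and miR-378a-5p exceeded miR-33-5p by 5.52 to 9.49 times.

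**Figure D1:**
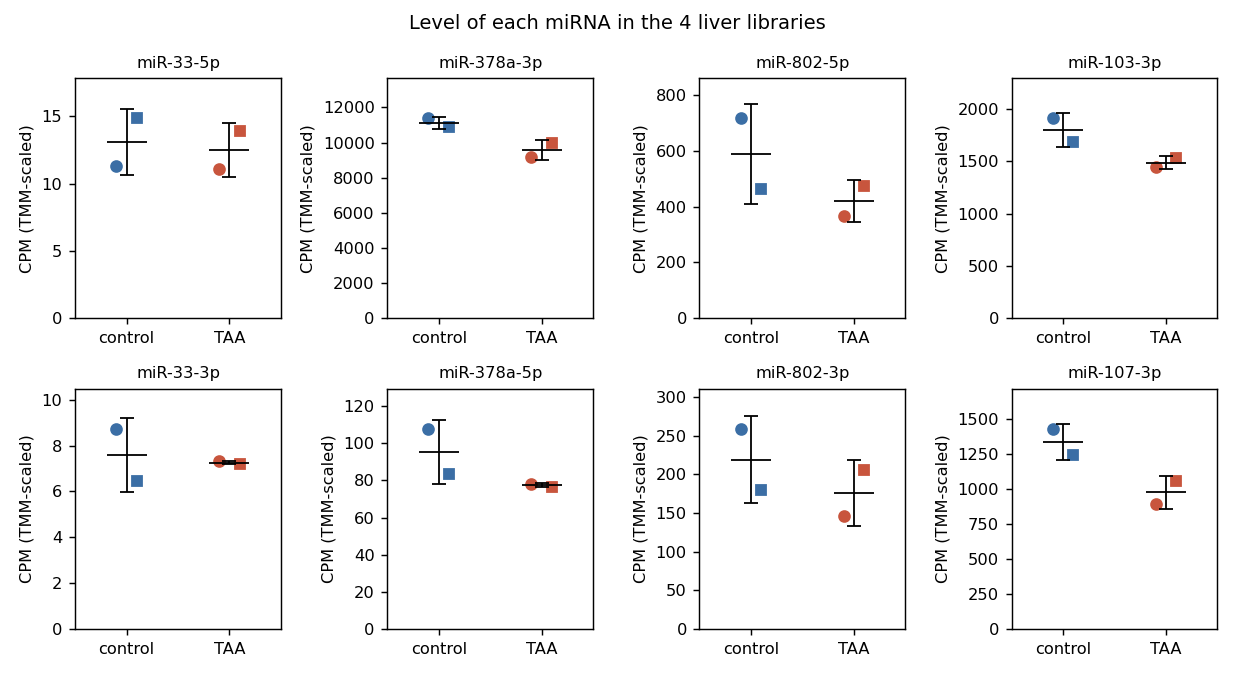
TMM-scaled CPM of each of the 8 miRNAs in the control (blue) and TAA (red) libraries. Circles are replicate 1 and squares replicate 2, horizontal lines are group means and error bars are 1 SD (n = 2). The groups are apart in both miR-378a arms, miR-103-3p and miR-107-3p, and overlap in both arms of miR-33 and of miR-802.

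The comparison of TAA-treated with control liver asks whether these miRNAs change in TAA-induced fibrosis. None of the 8 passed edgeR's quasi-likelihood test at an adjusted p of 0.05, where 16.6% of the 644 miRNAs tested did (14.0% higher and 2.64% lower). All 8 estimates were below 0, with a median log2 fold change of -0.29 against -0.0042 over all miRNAs tested. At an unadjusted p under 0.05, 2 of the 8 were lower, miR-107-3p and miR-103-3p, where 25.6% of all miRNAs tested had such a p in either direction. DESeq2 called 1 member lower, miR-107-3p, where it called 3.02% of all miRNAs lower, and limma-voom called 0, where it called 2.48% lower. In edgeR, 1 member was called lower with RLE size factors (2.80% of all miRNAs), 3 with upper-quartile factors (4.97%) and 2 with no filter on low counts (2.55%). With library size alone in place of TMM factors, 6 of the 8 estimates were below 0 and both arms of miR-33 were above it.

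**Figure D2:**
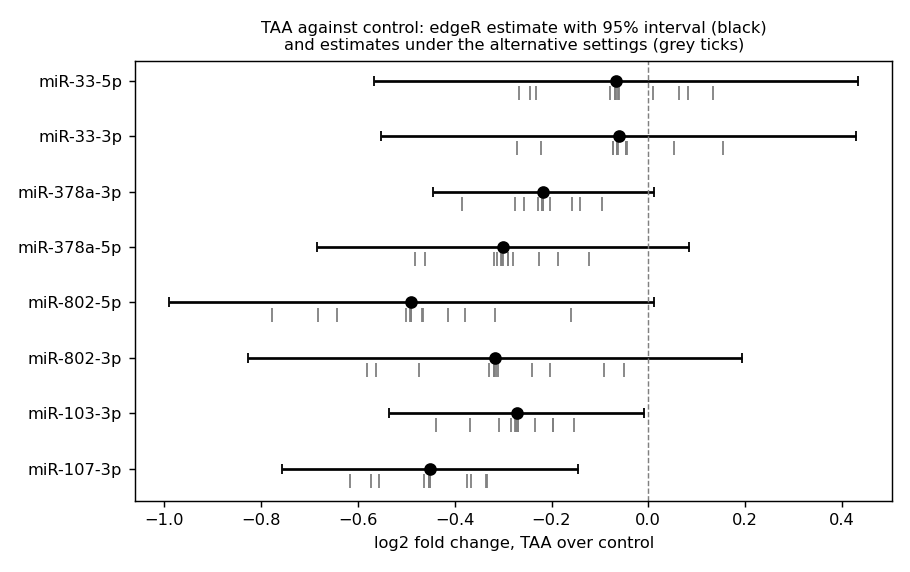
Log2 fold change of each miRNA, TAA over control, from edgeR (black point) with its 95% interval, and the estimates under each alternative setting (grey ticks). The interval lies wholly below 0 for miR-103-3p and miR-107-3p, unadjusted for the number of miRNAs tested, and the ticks of both miR-33 arms lie on both sides of 0.

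miR-107-3p, the Pank1 member, came nearest to the threshold. It measured 1426 and 1241 CPM in the controls and 893 and 1059 CPM after TAA. Both TAA libraries lay below both controls, with TMM factors and with library size alone. The group means were 1334 ± 131 (SD) and 976 ± 117 CPM, a log2 fold change of -0.45 (SE 0.13, 95% interval -0.76 to -0.15, edgeR adjusted p = 0.0550). This sits so close to the threshold that the setting decided the call: the adjusted p was 0.0497 with RLE size factors, 0.0420 with DESeq2, 0.0104 with upper-quartile factors and 0.0112 with no filter on low counts. It was 0.166 with library size alone and 0.166 with a minimum of 10 CPM in 2 libraries. In edgeR it was 0.0720 with the replicate number as a block and 0.0561 without the most abundant miRNA. With limma-voom it was 0.0578. Without control 2 it was 0.00749, and without each of the other libraries it was 0.141 to 0.418.

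miR-103-3p, which has the same seed, measured 1909.7 and 1683 CPM in the controls and 1444 and 1531 CPM after TAA. The groups were apart with TMM factors and overlapped with library size alone, where control 2 held 1556 CPM and TAA 2 held 1607 CPM. The log2 fold change was -0.27 (SE 0.11, 95% interval -0.54 to -0.0081, edgeR adjusted p = 0.177). It passed with upper-quartile factors (adjusted p = 0.0480), under which the median over all miRNAs was -0.17, and in no other setting.

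Because their seed is the same, the pair was also summed. The sum was 3336 and 2924 CPM in the controls and 2337 and 2589 CPM after TAA, apart with TMM factors and overlapping with library size alone. An exact two-sided permutation test of the sum gave p = 0.333, the smallest that 2 libraries against 2 allow. The ratio of the miR-103-3p to the miR-107-3p count, which does not depend on scaling, was 1.34 and 1.36 in the controls and 1.62 and 1.45 after TAA. Both TAA ratios lay above both controls, and the exact two-sided permutation test again gave p = 0.333. The ratio differed more between the 2 TAA libraries (SD 0.12) than between the 2 controls (SD 0.012), though an SD from 2 libraries is itself imprecise.

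The opposite arms of these hairpins were nearly absent. miR-107-5p had 97 and 67 counts in the controls and 64 and 72 after TAA, so the 3p arm held at least 99.8% of the counts of that hairpin in every library. miR-103-2-5p, of the Pank2 locus, had 12 and 15 counts in the controls and 6 and 9 after TAA. miR-103-1-5p, of the Pank3 locus, had 4 and 4 counts in the controls and 0 and 1 after TAA, and it did not pass the filter on low counts. Neither tested arm passed edgeR (adjusted p = 0.299 for miR-103-2-5p and 0.407 for miR-107-5p). The log2 fold change of miR-103-2-5p was -1.02 with an SE of 0.55.

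miR-378a-3p measured 11372 and 10863 CPM in the controls and 9149 and 9980.4 CPM after TAA. The groups were apart with TMM factors, but by share of all miRNA counts TAA 2 (1.05%) lay above control 2 (1.005%). The log2 fold change was -0.22 (SE 0.099, 95% interval -0.45 to 0.012, edgeR adjusted p = 0.219). The minor arm, miR-378a-5p, measured 108 and 83.3 CPM in the controls and 78.3 and 76.7 CPM after TAA. Its groups were apart with TMM factors and overlapped with library size alone (log2 fold change -0.30, SE 0.17, adjusted p = 0.320). That value was -0.12 without control 1 and -0.48 without control 2. Neither arm passed in any setting.

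Near copies of miR-378a-3p from other loci are listed under their own names. miR-378c measured 1380 and 1327 CPM in the controls and 1220.1 and 1272 CPM after TAA, miR-378d 242 and 219, and 183 and 199 CPM, and miR-378b 12.6 and 12.2, and 10.1 and 11.1 CPM. None passed edgeR, with adjusted p of 0.552, 0.259 and 0.502. The miR-378c count was 12.1% and 12.2% of the miR-378a-3p count in the controls and 13.3% and 12.7% after TAA, so that both TAA libraries lay above both controls. The miR-378d count was 2.13% and 2.02% in the controls and 2.005% and 1.99% after TAA, with both TAA libraries below both controls. The gap between control 2 and TAA 1 was smaller than the counting error of miR-378d, up to 2.15% of its value to either side. The miR-378b count was 0.111% to 0.112% in every library. Its counting error reached 9.15% of its value to either side, so so close a match is finer than these counts can resolve. With 2 libraries against 2, the exact two-sided permutation test gave p = 0.333 for miR-378c and for miR-378d, the smallest it allows. How far these rows hold reads of miR-378a itself was not tested.

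miR-802 had the largest estimate among the members and also one of the largest spreads between replicates. miR-802-5p measured 716 and 463 CPM in the controls and 366 and 474 CPM after TAA. The groups overlapped, since TAA 2 lay above control 2, and control 1 stood 1.55 times above control 2. The log2 fold change was -0.49 (SE 0.22, 95% interval -0.99 to 0.011, edgeR adjusted p = 0.208). The other arm, miR-802-3p, followed it at 259 and 179.7 CPM in the controls and 146 and 206 CPM after TAA (log2 fold change -0.32, SE 0.22, adjusted p = 0.429).

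Single libraries moved the value for miR-802. Without control 1 the log2 fold change of miR-802-5p was -0.16 (adjusted p = 0.736) and that of miR-802-3p was -0.049 (adjusted p = 0.923). Without control 2 they were -0.78 (adjusted p = 0.000207) and -0.56 (adjusted p = 0.0300). Without TAA 1 they were -0.32 and -0.092, and without TAA 2 they were -0.68 and -0.58, with no call in either case. miR-802-5p also passed with upper-quartile factors (adjusted p = 0.0354) and with no filter on low counts (adjusted p = 0.0116). Control 1 was the library with raised pancreas markers: miR-375-3p, a miRNA of pancreatic islets, measured 103 CPM there against 8.47, 10.2 and 9.38 CPM in control 2, TAA 1 and TAA 2. miR-217-5p, of pancreatic acinar cells, had 2.95 CPM in control 1 and at most 0.13 CPM elsewhere. The part of these markers in the miR-802 value was not tested. Control 1 exceeded control 2 in 7 of the 8 members, all but miR-33-5p, although by only 1.05 times in miR-378a-3p.

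miR-33 was low in every library. miR-33-5p, the arm known to repress Abca1, measured 11.3 and 14.9 CPM in the controls and 11.1 and 13.9 CPM after TAA, and the groups overlapped. Its log2 fold change was -0.066 (SE 0.22, 95% interval -0.57 to 0.43, edgeR adjusted p = 0.900). miR-33-3p measured 8.72 and 6.43 CPM in the controls and 7.30 and 7.21 CPM after TAA, with both TAA libraries between the controls (log2 fold change -0.061, SE 0.21, 95% interval -0.55 to 0.43, adjusted p = 0.906). The intervals leave room for a change in either direction. The sign of both arms turned with library size alone and with some libraries left out.

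The balance of the arms was compared within each library, which needs no scaling. For miR-33 the 5p to 3p ratio of counts was 1.30 and 2.31 in the controls and 1.52 and 1.93 after TAA, so that the controls enclosed the TAA libraries. miR-802 kept a 5p excess of 2.77 and 2.57 in the controls and 2.51 and 2.30 after TAA, where both TAA ratios were the lower. The exact two-sided permutation test of this miR-802 ratio gave p = 0.333, the smallest that 2 libraries against 2 allow. The 3p arm of miR-378a exceeded its 5p arm by 105.7 to 130.5 times. With limma on log2 ratios, 0 of 150 hairpins passed (0%) and 5 had an unadjusted p under 0.05, none of them a member. The log2 differences were -0.018 (SE 0.32) for miR-33, -0.071 (SE 0.20) for miR-378a and -0.15 (SE 0.18) for miR-802, with an adjusted p of 0.985 for each.

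**Figure D3:**
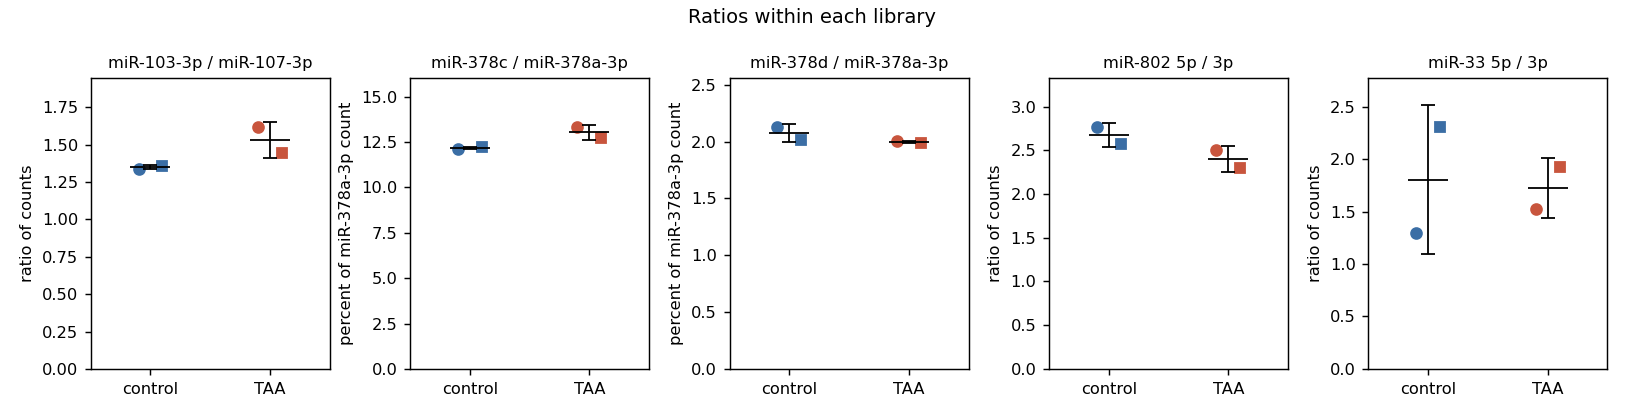
Ratios of counts within each library for miR-103-3p over miR-107-3p, miR-378c as a percentage of miR-378a-3p, miR-378d as a percentage of miR-378a-3p, and the 5p over the 3p arm of miR-802 and miR-33. Circles are replicate 1 and squares replicate 2, with the mean and 1 SD (n = 2). TAA libraries lie above the controls in the first and second panels (1.45 and 1.62 against 1.34 and 1.36 for miR-103-3p over miR-107-3p), below them for miR-378d and miR-802, and between them for miR-33.

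With TMM factors both TAA libraries lay below both controls in 4 of the 8 members and above them in 0. Over all miRNAs tested, 25.6% lay below in this way and 29.7% above. With library size alone 1 of 8 lay below, miR-107-3p, and 14.8% of all miRNAs tested lay below and 38.5% above. All 6 hepatocyte markers also lay below with TMM factors. With library size alone the groups overlapped in miR-122-5p, miR-192-5p and miR-194-5p and stayed apart in the other hepatocyte markers. The median of the 6 with TMM factors was -0.22 on the log2 scale, with 0 past edgeR's threshold (3 with an unadjusted p under 0.05). The part of hepatocyte content in the members' values was not tested.

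The miRNAs most like each member were found by the distance between centred log2 CPM over the 4 libraries, among 266 others with a mean of at least 10 CPM. This describes 4 values per miRNA and carries no test. miR-378a-3p lay nearest to its copy miR-378b (distance 0.016) and then to miR-30c-1-3p (0.046), where the median candidate lay at 0.34. The counting error of miR-378b, up to 9.15% of its value to either side, leaves the closeness of that match uncertain. miR-103-3p lay nearest to miR-378d (0.035) and miR-192-3p (0.040). miR-107-3p lay nearest to miR-676-3p (0.18), which fell after TAA (log2 fold change -0.62, edgeR adjusted p = 0.0384), and to miR-378d (0.21).

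Each arm of miR-802 lay nearer to the other (0.19) than to any candidate, and the next were miR-345-3p (0.27) and miR-676-3p (0.28) for miR-802-5p and miR-183-5p (0.23) and miR-182-5p (0.25) for miR-802-3p. miR-378a-5p was most like let-7a-1-3p (0.11) and miR-365-3p (0.11). miR-33-5p was most like miR-671-3p (0.12) and miR-423-3p (0.13), and miR-33-3p like miR-28a-3p (0.061) and miR-324-5p (0.10). The arms of miR-33 were therefore not each other's nearest miRNAs.

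Other miRNAs of hepatic lipid control were taken from a list of 20, all tested. There were 4 that rose and 1 that fell, where 14.0% of all miRNAs tested rose and 2.64% fell, and the list's median log2 fold change was -0.024. This list and the glucose list below were chosen with earlier results of these data known. Their counts are therefore no independent comparison with all miRNAs. miR-34a-5p, a p53 target that represses Sirt1, measured 32.5 ± 8.58 CPM in the controls and rose to 77.2 ± 5.62 CPM (1.25 on the log2 scale, edgeR adjusted p = 0.00367). miR-130b-3p, which represses Pparg, rose from 6.05 ± 1.47 to 11.3 ± 0.31 CPM (adjusted p = 0.0267). miR-144-3p, an erythroid miRNA that represses Abca1, rose with a wide spread, from 4.04 and 4.02 to 7.39 and 32.3 CPM (adjusted p = 0.0286). All 5 erythroid markers, of which it is 1, rose, and their sum was 445 and 274 CPM in the controls, 731 CPM in TAA 1 and 2627 CPM in TAA 2. Their part in its rise was not tested. miR-758-3p rose from 1 and 2 counts to 29 and 19 counts (adjusted p = 0.00939). miR-10b-5p, a miRNA of the Hoxd cluster, fell from 397 ± 107 to 136 ± 9.78 CPM (adjusted p = 0.000666).

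Of 16 miRNAs of glucose control and insulin action, 15 were tested, of which 2 rose and 2 fell (list median -0.071 on the log2 scale), beside the same 14.0% and 2.64% of all miRNAs. miR-379-5p measured 2.39 ± 0.23 CPM in the controls and rose to 25.6 ± 6.25 CPM (3.42 on the log2 scale, edgeR adjusted p = 3.75e-05). miR-214-3p, of stellate cells, rose from 55.1 ± 5.93 to 86.6 ± 13.3 CPM. Of 6 mesenchymal markers it was the only one past the threshold, and both TAA libraries lay above both controls in 3. miR-143-3p and miR-145a-5p had log2 fold changes below 0 (-0.041 and -0.41). The sum of the 6 markers was 28176 and 28416 CPM in the controls and 32228 and 23829 CPM after TAA, which overlapped. miR-29c-3p and miR-29b-3p, repressors of collagen mRNAs, fell with log2 fold changes of -0.49 and -0.54 (edgeR adjusted p = 0.0185 and 0.0335). The more abundant miR-29a-3p, also on the list, went from 5758 to 4746 CPM and did not pass (-0.28, adjusted p = 0.115). miR-26a-5p stands in both lists and did not pass (adjusted p = 0.745).

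The counts in both lists depended on the libraries and the setting. They fell when either TAA library was left out, and so did the count over all miRNAs tested. Leaving out a control also moved some of them. Such a fit rests on 1 library in a group. With upper-quartile factors, 1 of the glucose list rose and 4 fell, where 83 of all 644 miRNAs rose and 32 fell. With a minimum of 10 CPM in 2 libraries, 2 lipid miRNAs rose and 1 glucose miRNA fell. Of all 282 miRNAs tested there, 36 rose and 5 fell. With library size alone 1 glucose miRNA fell, where 12 of all 644 fell.

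**Figure D4:**
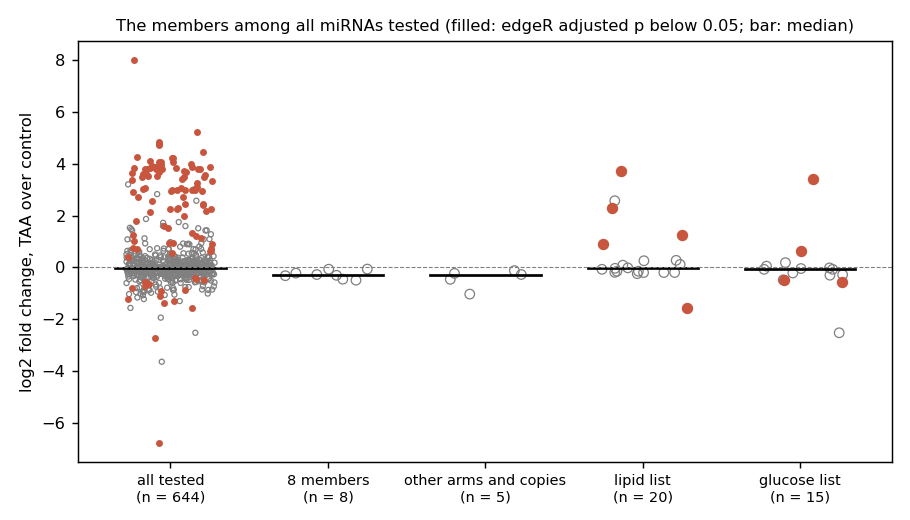
Log2 fold change, TAA over control, of all 644 miRNAs tested, the 8 members, 5 tested other arms and copies of the members, and the lipid and glucose lists. Filled points passed edgeR at an adjusted p below 0.05 and bars are medians; the 8 members are all open points between -0.49 and -0.061.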

How the data were processed

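Each deposited file gives the raw count of reads for every mature miRNA in 1 library. Bowtie, HTSeq and mm10 are named in the submitters' processing notes. Their versions, adapter trimming and the miRNA annotation are not stated in the labels. The 5 summary rows that name no miRNA were left out: reads outside annotated miRNAs made up 22.8% to 26.4% of reads and unaligned reads 7.11% to 8.49%. Replicates differed beyond sampling noise (chi-square per degree of freedom 150.2 in control, 207 in TAA) and were kept apart. Libraries were grouped by their titles. The main test was edgeR 4.0.16 under R 4.3.3, with filterByExpr, TMM factors and the quasi-likelihood F test over all 644 miRNAs kept, Benjamini-Hochberg adjustment and a threshold of 0.05. The SE is the log2 fold change over the square root of F. For arm ratios, 0.5 was added to both counts, and limma 3.58.1 was run on the log2 ratio of 5p to 3p wherever both arms averaged 20 counts or more. Both procedures were tested on simulated data. Alternatives were other scaling factors, filters, DESeq2 1.42.0, limma-voom, a replicate block and leaving out each library.

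The 8 members, the lists and the naming rule (all members, their other arms and copies, the 2 nearest miRNAs of each member, and list miRNAs past the threshold) were chosen with earlier results of these data known.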

Additional observations from a re-analysis of the deposited data

How the results depend on the processing

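The number of members called lower was 0 of 8 with TMM factors and filterByExpr, where 2.64% of all miRNAs were called lower. It was 1 with RLE size factors (2.80% of all miRNAs) and 3 with upper-quartile factors (4.97%). With no filter on low counts it was 2 (2.55%), and with DESeq2 it was 1 (3.02%). With 1 library left out the number varied with the library, as did the share of all miRNAs called lower. No setting called a member higher. The count over all miRNAs, 107, was 41 with a minimum of 10 CPM in 2 libraries, where 282 were tested, and 49 to 131 with 1 library left out. The median over all miRNAs, on the log2 scale, was -0.17 with upper-quartile factors and 0.12 with library size alone. Hairpins past the arm-ratio threshold numbered 0, but 3 with a pseudocount of 5, 1 with a mean of at least 100 counts per arm and 0 to 11 with 1 library left out; none was a member. The log2 fold change of miR-33-5p turned to 0.062 with library size alone and 0.0094 with the 10 CPM minimum, and that of miR-33-3p to 0.053 with library size alone. With 1 library left out they ranged from -0.27 to 0.13 and from -0.27 to 0.15, and the arm differences of miR-33 and miR-378a from -0.43 to 0.40 and from -0.22 to 0.081. The other 6 members stayed below 0 in all 13 alternatives.

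With the replicate number as a block, 110 miRNAs and 0 members passed edgeR, with a lowest member adjusted p of 0.0720, and 0 hairpins passed. In the glucose list 1 miRNA fell there, where 18 of all 644 fell. Without the block 2 of that list fell, where 17 of all 644 fell. The labels do not say that a number marks a pair, and the difference between replicates 1 and 2 correlated at -0.053 between the groups over 644 miRNAs. With 1 library left out, the lone library of its group was assumed to vary like the other group.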
